A study of Mus musculus with 6 samples.

Results

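The CXC chemokines described here are the 8 genes Cxcl1, Cxcl2, Cxcl3, Cxcl9, Cxcl10, Cxcl13, Cxcl16 and Pf4, taken by name from the 32285 genes of the deposited single-cell count matrices. CXC chemokines are small secreted proteins, named after a pair of cysteines separated by 1 residue, that draw leukocytes along concentration gradients through G protein-coupled receptors. The mouse members fall into groups by the cells they attract. Cxcl1, Cxcl2 and Cxcl3 act on Cxcr2 and recruit neutrophils, Cxcl9 and Cxcl10 act on Cxcr3 of T and NK cells, Cxcl13 places B cells through Cxcr5, and Cxcl16 is made as a transmembrane protein that binds Cxcr6 and can be shed. Pf4 (platelet factor 4, also called Cxcl4) is stored in platelet granules and is also made by some tissue macrophages.

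The 2 groups were 3 libraries labelled AML lung (acute myeloid leukaemia) and 3 labelled normal lung, all mouse. In both groups the lungs were perfused and digested, and CD45-positive cells were enriched on magnetic beads before 10x Genomics 3' v3.1 library preparation. The labels used here give no leukaemia model, strain, age or treatment, do not mark which cells are leukaemic, and do not say that the libraries came from separate mice, so p-values measure the spread between libraries. The libraries held 4687, 13120 and 35391 barcodes in AML lung and 3967, 5873 and 10057 in normal lung. Total UMIs were similar, between 49061667 and 66513826 in AML lung and between 43913245 and 52051203 in normal lung, but the median per barcode was 9381, 3979.5 and 1067 in AML lung and 9354, 6102 and 2740 in normal lung. AML library 3 was therefore much the shallowest per cell. Pairs of libraries shared 2 to 118 barcode sequences.

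Cells were clustered without the 8 genes among the variable genes, and 29 of 32 clusters were named from marker genes into 15 classes holding 67627 of 70292 cells. Class names end in "-like" for that reason. Endothelial-like cells, which are not CD45-positive, made up 0.471% to 3.15% of cells in AML lung against 2.84% to 6.67% in normal lung. Levels below are counts per 1000000 UMIs (CPM) of the whole library or of the class. The 3' UMI count was not divided by transcript length, so levels are compared within a gene and not between genes. Tests of AML lung against normal lung used edgeR's quasi-likelihood test on UMI counts summed per library, and a gene was called when its p, adjusted by Benjamini-Hochberg over all genes tested in the same fit, was under 0.05.

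Cxcl16 lies on chromosome 11 of GRCm38, and the other genes lie on chromosome 5. The upstream sequences of the neutrophil-attracting genes and of Cxcl10 are shown because the first 3 share a run of letters, and Cxcl10, the gene called below in nonclassical monocyte-like cells, holds other matches to the same form. The bases nearest the gene start are from RefSeq, build GRCm38.p6, written 5′ to 3′ on the gene's own strand: chr5:90891125-90891240 for Cxcl1, chr5:90903779-90903870 for Cxcl2 and chr5:90785981-90786100 for Cxcl3, all on the plus strand, and chr5:92348890-92349139 on the minus strand for Cxcl10. Capitals mark matches, on either strand, to the κB form GGGNNNTTCC and, in Cxcl10, also to the interferon-response form TTTCNNTTTC.
Cxcl1: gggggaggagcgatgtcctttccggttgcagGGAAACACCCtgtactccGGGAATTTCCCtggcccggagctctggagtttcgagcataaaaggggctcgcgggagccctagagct
Cxcl2: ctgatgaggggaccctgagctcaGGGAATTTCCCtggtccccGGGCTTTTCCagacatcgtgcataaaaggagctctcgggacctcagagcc
Cxcl3: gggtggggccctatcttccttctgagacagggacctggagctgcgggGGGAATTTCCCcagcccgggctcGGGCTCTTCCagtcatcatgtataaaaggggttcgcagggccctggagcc
Cxcl10: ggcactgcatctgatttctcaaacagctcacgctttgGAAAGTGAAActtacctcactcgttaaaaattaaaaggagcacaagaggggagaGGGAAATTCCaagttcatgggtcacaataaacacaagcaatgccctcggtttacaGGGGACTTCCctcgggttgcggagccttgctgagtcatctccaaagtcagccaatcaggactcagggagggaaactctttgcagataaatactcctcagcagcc

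The κB form occurred 3 times in the 250 bases upstream of each of Cxcl1, Cxcl2 and Cxcl3, and 2 of the 3 matches overlap on opposite strands in the shared run GGGAATTTCCC. Cxcl10 held the κB form 2 times and the interferon-response form once, as GAAAGTGAAA. Over the same 250 bases, 4.648% of 32851 RefSeq promoters held the κB form, 2.977% held TTTCNNTTTC, and 7.02% held the STAT form TTCNNNGAA, which none of the genes held. The windows of Cxcl9, Cxcl13 and Pf4 held none of these forms, and a match or its absence says nothing here about binding. Of the 8 genes, 7 matched an entry in the promoter table.

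In whole libraries none of the 8 genes differed between the groups past the threshold (edgeR, 0 of 8 called, with 9.9% of 16856 genes called). Cxcl2 and Cxcl10, 2 of the 8, had an unadjusted p under 0.05, as did 30.4% of all genes. DESeq2 called Cxcl10 alone, and the share of all genes that DESeq2 called is not given here. Fewer cells of a type and less RNA per cell cannot be told apart at this level. Cxcl2 stood at 327, 236 and 508 CPM in AML libraries 1, 2 and 3, against 264, 238 and 189 CPM in normal libraries 1, 2 and 3 (357 ± 138 and 231 ± 38.2 CPM, SD, n = 3 each). The groups overlapped through AML library 2, and the edgeR log2 change was 0.76 ± 0.28 (SE, adjusted p = 0.124). Cxcl10 stood at 9.42, 9.32 and 7.44 CPM in AML lung and at 6.67, 3.66 and 6.42 CPM in normal lung. Every AML library lay above every normal library, with an edgeR log2 change of 0.77 ± 0.25 (SE, adjusted p = 0.0935, DESeq2 adjusted p = 0.0325). Much of the Cxcl10 of AML libraries 1 and 2 came from cluster 31, described below, which had no cells in normal lung. Its 8 and 41 cells there held 208 of 462 and 248 of 620 UMIs. The whole-library test was not repeated without these cells.

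The remaining genes did not pass in whole libraries, with edgeR adjusted p between 0.211 and 0.998. Cxcl1 gave 11, 0 and 12 UMIs in AML lung and 29, 94 and 5 in normal lung. For the library without a UMI, 3 counts correspond to 0.0451 CPM. Its log2 change was -2.43 ± 1.19 (SE), and the groups overlapped. The other log2 changes in whole libraries were -0.79 for Cxcl3, -0.00 for Cxcl9, -2.99 for Cxcl13, 0.13 for Cxcl16 and 0.14 for Pf4, each with overlapping groups.

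**Figure D1:**
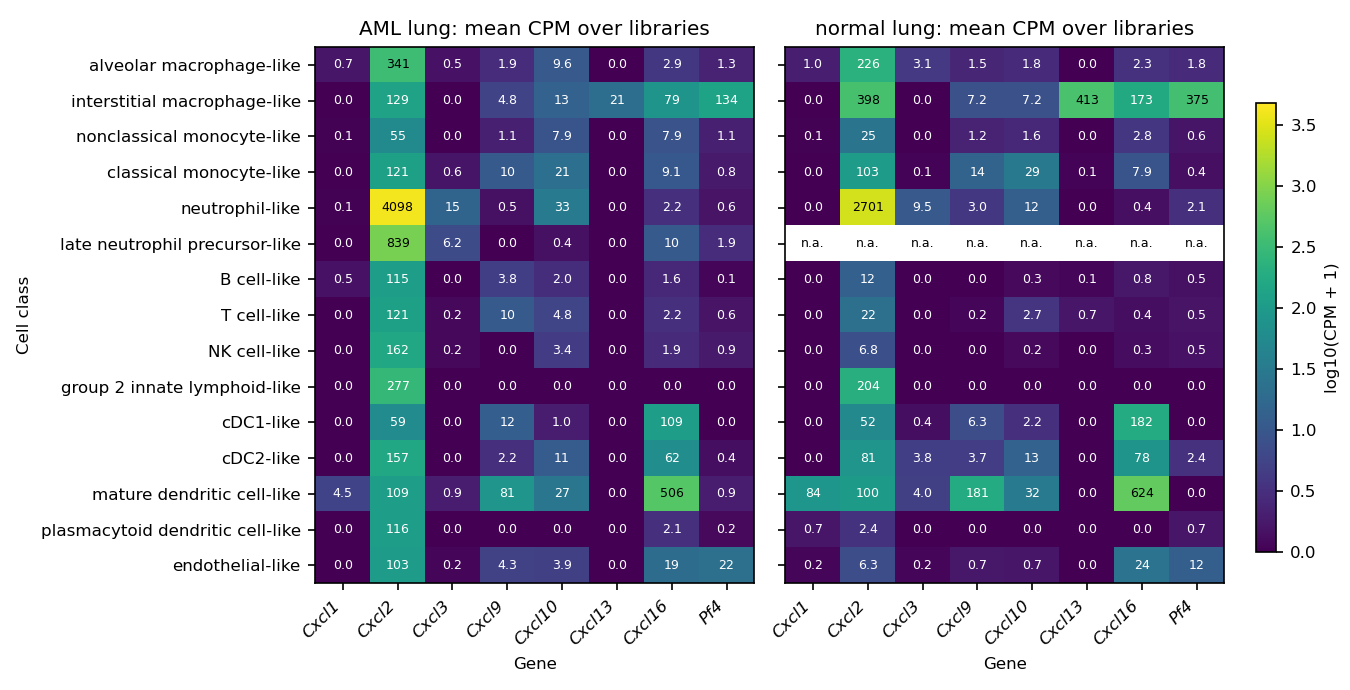
Mean level of each gene over the libraries of a group (columns) in each cell class (rows), AML lung on the left and normal lung on the right, as log10(CPM + 1) in colour with the mean CPM printed in the cells. Cxcl2 is highest in neutrophil-like cells, Cxcl16 in mature dendritic cell-like cells and Pf4 in interstitial macrophage-like cells in both groups.

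The 8 genes came from different classes, and for Cxcl3 and Cxcl10 the class with the most UMIs differed between the groups. Of the Cxcl2 UMIs, neutrophil-like cells supplied 64.1% in AML lung against 52.7% in normal lung, and alveolar macrophage-like cells supplied 12.3% in AML lung against 37.3% in normal lung. Cxcl3 was divided in a similar way. In AML lung 69.3% of its 153 UMIs were in neutrophil-like, 9.15% in late neutrophil precursor-like and 8.5% in alveolar macrophage-like cells. In normal lung 24.2% of 248 UMIs were in neutrophil-like and 68.2% in alveolar macrophage-like cells. Cxcl10 came most from nonclassical monocyte-like cells in AML lung (39.1%, 564 of 1441 UMIs) and most from classical monocyte-like cells in normal lung (50.5%, 378 of 748 UMIs). Nonclassical monocyte-like cells led in AML libraries 1 and 2 but not in AML library 3. There they gave 25 Cxcl10 UMIs, neutrophil-like cells 101 and classical monocyte-like cells 90. Classical monocyte-like cells led in all 3 normal libraries. The lead in AML libraries 1 and 2 rested on the few cells of cluster 31, described below. Without that cluster nonclassical monocyte-like cells gave 40 and 43 Cxcl10 UMIs in these libraries. Classical monocyte-like cells gave 99 and 75 there, and neutrophil-like cells 88 and 84. The shares of a gene's UMIs follow both the level in a class and the number of its cells. Nonclassical monocyte-like cells made up 51.3%, 41.4% and 15.9% of cells in AML lung against 10.8%, 13.1% and 10.5% in normal lung, while alveolar macrophage-like cells made up 6.5%, 4.28% and 16.6% in AML lung and 29.0%, 22.2% and 14.97% in normal lung.

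**Figure D2:**
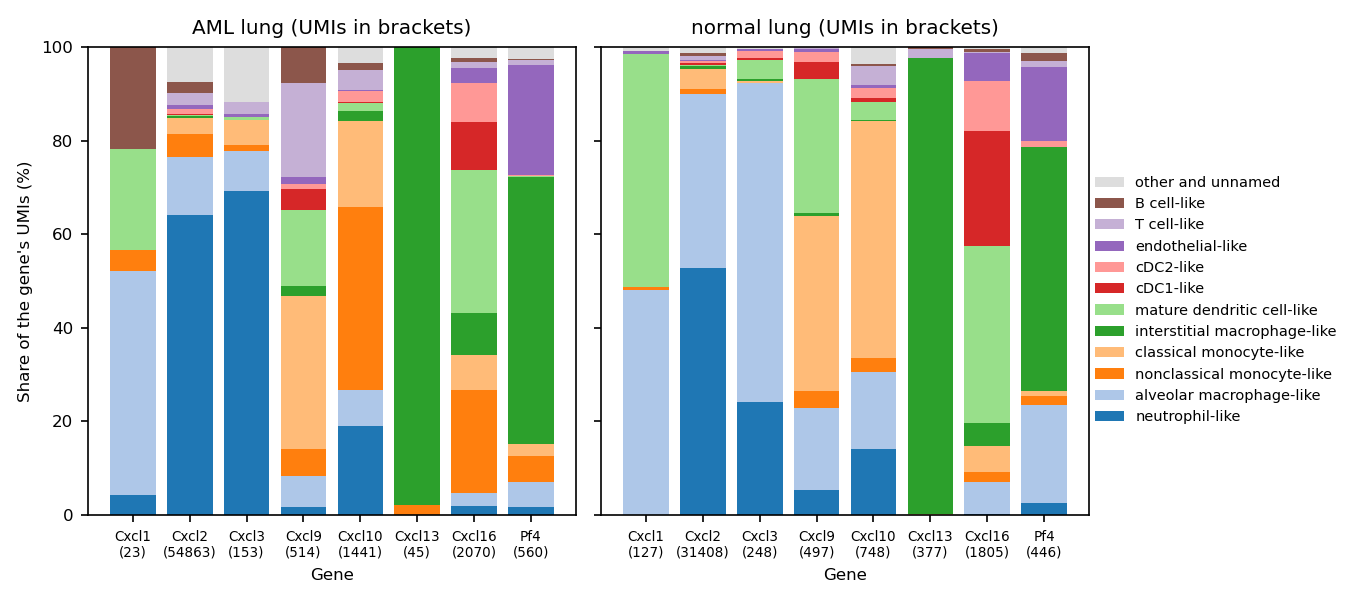
Share of each gene's UMIs (%) found in each cell class, summed over the libraries of AML lung (left) and normal lung (right), with the number of UMIs in brackets. Nonclassical monocyte-like cells hold 39.1% of Cxcl10 UMIs in AML lung, mostly from AML libraries 1 and 2. Of these 564 UMIs, 458 are in cluster 31. Classical monocyte-like cells hold 50.5% of Cxcl10 UMIs in normal lung.

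Within classes, 37 tests of a gene in a class were possible in 13 classes, and 2 passed, Cxcl10 and Cxcl16 in nonclassical monocyte-like cells. The lowest edgeR adjusted p among the others was 0.114, for Cxcl2 in interstitial macrophage-like cells. Over all genes edgeR called 6.49% in nonclassical monocyte-like cells, 2.2% in classical monocyte-like cells and at most 0.218% in each remaining class. The classes in which the genes had their highest levels are described below by the role of each gene.

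Cxcl2 (ENSMUSG00000058427, chromosome 5, 90903871 to 90905938, plus strand), a neutrophil attractant that activated neutrophils and macrophages release, had its highest level in neutrophil-like cells. The level was 5650, 4625 and 2018 CPM in AML libraries 1, 2 and 3 and 2452, 3042 and 2609 CPM in normal libraries 1, 2 and 3. AML libraries 1 and 2 lay above every normal library and AML library 3 lay below all of them. The edgeR log2 change was 0.55 ± 0.46 (SE, adjusted p = 0.553), and 0 of the 3 genes tested in this class were called, with none at an unadjusted p under 0.05 and none called by DESeq2 (0.0123% of 8133 genes were called). After each cell was thinned to 800 UMIs, 70.6%, 67.5% and 50.9% of neutrophil-like cells had a Cxcl2 UMI in AML lung, against 54.5%, 58.9% and 59.1% in normal lung. Without thinning the shares were 84.3%, 74.6% and 58.5% in AML lung and 69.5%, 71.4% and 65.3% in normal lung.

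B cell-like cells, which should lack the gene, gave the background. Their thinned share was 0.262%, 1.14% and 13.3% in AML lung and 0%, 0.101% and 1.58% in normal lung, where 0 of 501 cells allows a share of up to 0.599%. The median UMIs per cell were 6479, 3129 and 960.5 in AML and 7088, 4253 and 2568 in normal B cell-like cells, against 5067, 2217 and 1010 in AML and 5556, 3596 and 2247.5 in normal neutrophil-like cells. The share in neutrophil-like cells was above this background in all 6 libraries. AML library 3 thus had both the lowest Cxcl2 level in neutrophil-like cells and the highest background share in B cell-like cells, and the 8 neutrophil markers summed in B cell-like cells ranged from 38.0 to 5421 CPM in AML lung and from 34.4 to 615 CPM in normal lung.

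The neutrophil-like class was made of 2 clusters, and these held Cxcl2 at different levels. Cluster 7 had 340, 694 and 1115 cells from AML lung and 491, 423 and 479 from normal lung, and its Cxcl2 level was 5809, 6034 and 5412 CPM in AML lung against 2680, 3126 and 2985 CPM in normal lung. In this cluster the 3 AML libraries were close together and all above the normal ones. Cluster 3 had 5, 192 and 4108 cells from AML lung and 20, 10 and 77 from normal lung, and its Cxcl2 level was 1874, 1246 and 1275 CPM in AML lung against 708, 1738 and 923 CPM in normal lung. Most neutrophil-like cells of AML library 3 fell in cluster 3, so the mixture of clusters in the class differed between libraries. This division was looked at after the values were seen, and no test is given for it. Summed immediate early and stress genes, which rise during tissue digestion, stood between 12945 and 19954 CPM in AML and between 21233 and 23070 CPM in normal neutrophil-like cells, and the 6 erythroid markers stood between 0 and 2961 CPM in AML and between 1.32 and 25517 CPM in normal neutrophil-like cells. Their part in the Cxcl2 values was not tested.

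In alveolar macrophage-like cells, which clear the airspace, Cxcl2 stood at 295, 310 and 418 CPM in AML lung and at 198, 240 and 238 CPM in normal lung. The groups did not overlap, but the difference missed the threshold over all genes (edgeR log2 change 0.60 ± 0.18 SE, unadjusted p = 0.0123, adjusted p = 0.237). In this class 0 of the 7 genes tested were called by edgeR or by DESeq2, 2 had an unadjusted p under 0.05 (15.8% of all genes did), and 0.0166% of 12048 genes were called. Without AML library 3 the log2 change was 0.39 (edgeR adjusted p = 0.209). The 8 neutrophil markers summed to between 497 and 5364 CPM in AML and between 153 and 327 CPM in normal alveolar macrophage-like cells, and their part in the result was not tested.

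Cxcl2 was tested in all 13 classes, and its log2 change was above 0 in 12 of them and below 0 in interstitial macrophage-like cells. The fits share the same libraries, so the classes are not repeats of each other, and the like count for other genes is not given here. The changes above 0 were as small as 0.08 in mature dendritic cell-like, 0.15 in cDC1-like and 0.23 in classical monocyte-like cells. In NK cell-like, plasmacytoid dendritic cell-like and endothelial-like cells the log2 changes were 4.65, 5.53 and 4.26, with edgeR adjusted p of 0.312, 0.616 and 0.124. NK cell-like cells had Cxcl2 at 4.18, 84.8 and 396 CPM in AML lung against 2.52, 6.08 and 11.9 CPM in normal lung. Plasmacytoid dendritic cell-like cells had it at 44.9, 26.2 and 276 CPM in AML lung against 2.22 and 2.61 CPM in normal libraries 1 and 3, the other normal library having only 15 such cells. Endothelial-like cells had it at 5.15, 41.7 and 263 CPM in AML lung against 2.06, 2.45 and 14.3 CPM in normal lung. AML library 3 was the highest in each class, and AML library 1 lay within the normal range in NK cell-like and endothelial-like cells. The 8 neutrophil markers also reached higher sums in AML lung in these classes, at 36.1 to 8678 CPM in NK cell-like, 873 to 4844 CPM in plasmacytoid dendritic cell-like and 129 to 5309 CPM in endothelial-like cells, against 35.3 to 422, 35.6 to 179 and 41.6 to 685 CPM in normal lung. Their part in these values was not tested. Cxcl2 had an unadjusted p under 0.05 in all 3 of these classes, as did 13.7%, 7.84% and 18.4% of all genes in the same order, edgeR and DESeq2 each called 0 of the genes tested there, and the share edgeR called over all genes was 0% in each.

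**Figure D3:**
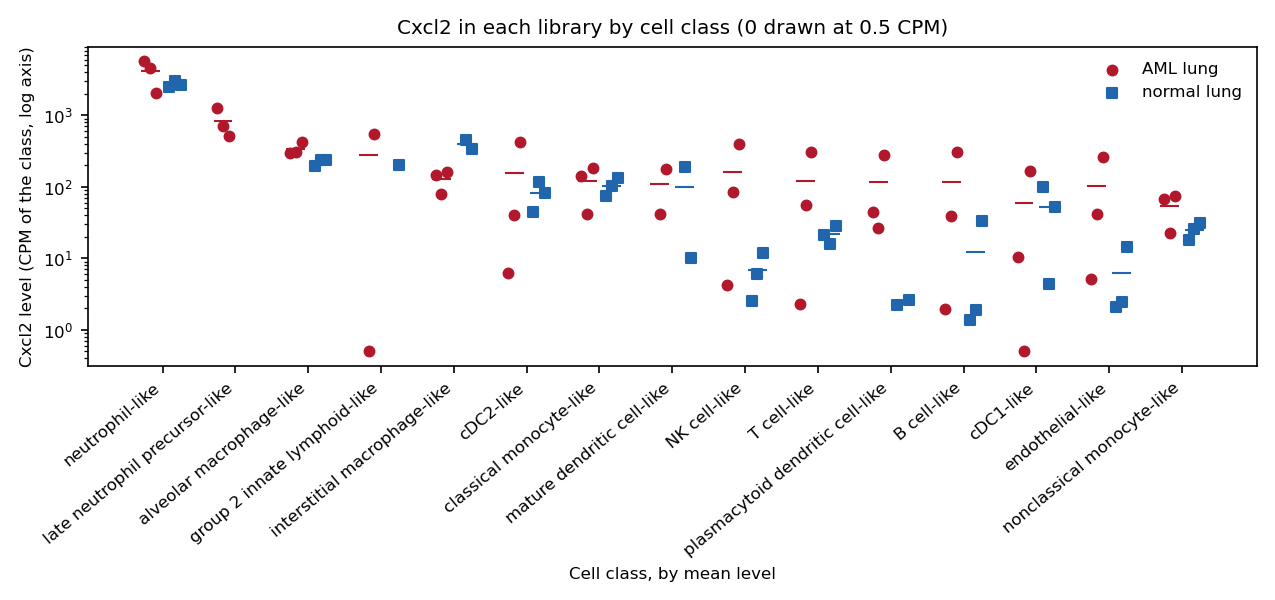
Cxcl2 level in CPM (log axis) in each library with at least 20 cells of a class, AML lung as circles left of normal lung as squares, with classes ordered by mean level and 0 drawn at 0.5 CPM. AML library 3 is at 2018 CPM in neutrophil-like cells, below the normal libraries, and at 304 CPM in B cell-like cells, where the other libraries are at 39.3 CPM or below.

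Cxcl3 (ENSMUSG00000029379, chromosome 5, 90786103 to 90789600, plus strand), a close relative of Cxcl2, was sparse and found mostly in the same classes. Late neutrophil precursor-like cells gave 14 UMIs, all in 2 cells of AML library 1. Neutrophil-like cells gave 36, 53 and 17 UMIs in AML lung (20.1, 21.0 and 2.57 CPM) and 27, 30 and 3 UMIs in normal lung (8.91, 17.6 and 1.99 CPM). The groups overlapped, with an edgeR log2 change of 0.49 ± 0.91 (SE, adjusted p = 0.801). In normal library 2, 20 of the 30 UMIs were in 1 cell, without which the level was 5.88 CPM. Alveolar macrophage-like cells gave 3, 0 and 10 UMIs in AML lung (0.552, 0 and 1.04 CPM) and 48, 108 and 13 UMIs in normal lung (1.88, 6.21 and 1.25 CPM). Every AML library was below every normal one, the library without a UMI having a limit of 0.825 CPM from 3 counts, and the log2 change of -2.26 ± 0.87 (SE) did not pass (edgeR adjusted p = 0.293). Here 56 of the 108 UMIs of normal library 2 were in 1 cell, without which its level was 2.998 CPM, still above the AML libraries. Cxcl3 therefore pointed the opposite way to Cxcl2 in alveolar macrophage-like cells, with neither gene called. Of neutrophil-like cells with a Cxcl3 UMI, 46 of 50 in AML lung and 23 of 26 in normal lung also held Cxcl2, against 61.8% and 68.1% of the remaining neutrophil-like cells of AML and normal lung. These counts, and the like counts below for Cxcl1, Cxcl9 and Cxcl13, were unthinned and pooled over libraries of different depth. The part of depth in them was not tested.

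Cxcl1 (ENSMUSG00000029380, chromosome 5, 90891241 to 90893115, plus strand), another Cxcr2 ligand, came from few cells. Alveolar macrophage-like cells gave 11, 0 and 0 UMIs in AML lung (2.03, 0 and 0 CPM) and 28, 29 and 4 in normal lung (1.10, 1.67 and 0.384 CPM). For the AML libraries without a UMI, 3 counts are 0.825 and 0.311 CPM. All AML UMIs of this class were in 1 library, in 3 cells, and that library lay above every normal one (edgeR log2 change -0.76 ± 1.17 SE, adjusted p = 0.778). All 3 of these AML cells, and 20 of 23 such normal cells, also held Cxcl2, against 28.6% and 37.3% of the remaining alveolar macrophage-like cells of AML and normal lung. The highest class level, 168 CPM in mature dendritic cell-like cells of normal library 2, came from 63 UMIs in 2 cells.

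Cxcr2, the receptor of these 3 ligands, was among the markers used to name the neutrophil-like class, so its presence there was set by the naming. Cxcr2 stood at 859, 549 and 363 CPM in AML and at 872, 749 and 860 CPM in normal neutrophil-like cells, AML library 1 lying among the normal libraries. Cxcr4, the bone marrow retention receptor bound by Cxcl12, stood at 224, 139 and 206 CPM in AML and at 415, 513 and 565 CPM in normal neutrophil-like cells, with every AML library below every normal one (edgeR log2 change -1.49 ± 0.28 SE, adjusted p = 0.13, DESeq2 adjusted p = 0.00143). Of the 8 CXC receptors, 4 were tested in neutrophil-like cells. By edgeR 0 were called, where 1 of 8133 genes was, while 3 had an unadjusted p under 0.05, as did 15.3% of all genes. DESeq2 called Cxcr4 alone, and the share of all genes that DESeq2 called is not given here. The 3 under 0.05 went both ways. Cxcr1 and Cxcr4 were lower in AML lung, with edgeR log2 changes of -2.06 and -1.49, and Cxcr5 was higher, at 1.25. Cxcr1 stood at 1.67, 1.59 and 2.27 CPM in AML against 9.57, 6.45 and 5.32 CPM in normal lung. Cxcr5 stood at 79.1, 148 and 33.1 CPM in AML against 29.0, 29.9 and 45.2 CPM in normal lung, which overlapped. With Cxcr2 at -0.53, the median log2 change of the 4 was -1.01, beside 0.02 over all genes.

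Cxcl10 (ENSMUSG00000034855, chromosome 5, 92346638 to 92348889, minus strand) draws T and NK cells through Cxcr3 and is induced by interferons. It was higher in AML than in normal nonclassical monocyte-like cells, the patrolling monocytes of the vessel wall. The class gave 248, 291 and 25 Cxcl10 UMIs in AML lung (9.97, 9.92 and 3.94 CPM) and 1, 15 and 7 UMIs in normal lung (0.245, 2.94 and 1.52 CPM). Every AML library lay above every normal library. The log2 change was 2.35 ± 0.58 (SE), a 5.11-fold difference (edgeR adjusted p = 0.0477). Only 3 of the 8 genes passed the filter on low counts in this class. Of these, 2 were called, both higher in AML lung, where 6.49% of 10703 genes were called and 3.71% were called higher.

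Most of that Cxcl10 came from a few cells. Cluster 31 held 8, 41 and 13 cells of the AML libraries and 0 of the normal ones, and its 62 cells carried 458 of the 564 AML UMIs of the class, with 32 of them holding a Cxcl10 UMI. The cluster was led by the interferon-induced genes Ifit2, Ifit1, Rsad2, Ifit3, Oasl1 and Gbp5 beside Cxcl10 and Il10. Without it the level was 1.62, 1.48 and 3.63 CPM in AML lung and 0.245, 2.94 and 1.52 CPM in normal lung, which overlapped, and Cxcl10 was then too low to be tested. A single cell of AML library 1 held 194 Cxcl10 UMIs of its 54231 UMIs. Without that cell AML library 1 stood at 2.18 CPM, and the edgeR log2 change was 1.77 ± 0.74 (SE, adjusted p = 0.187). The call was also lost on leaving out AML library 1, AML library 2 or any 1 normal library, with edgeR adjusted p between 0.0755 and 0.162, and when each cell was named by its own markers (log2 change 0.86, edgeR adjusted p = 0.393). The gene overlaps Art3 on the opposite strand, and the sources used here do not give the strand setting of the counting.

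**Figure D4:**
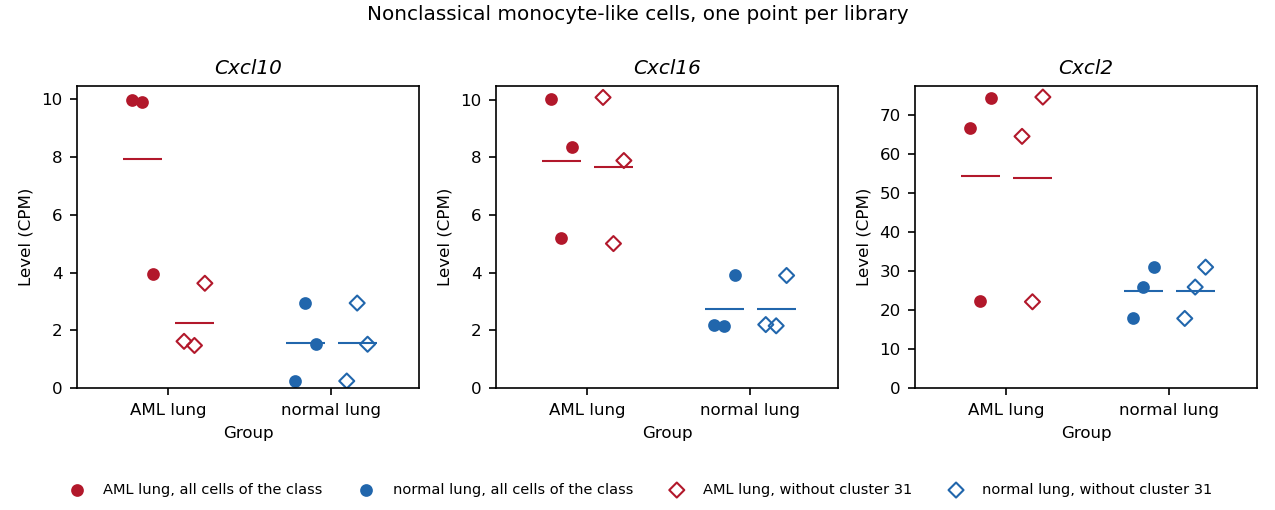
Levels (CPM) of Cxcl2, Cxcl10 and Cxcl16 in nonclassical monocyte-like cells, 1 point per library and a line at the mean, AML lung left of normal lung, with all cells of the class (filled) and without cluster 31 (open). Without that cluster Cxcl10 in AML libraries 1 and 2 drops to 1.62 and 1.48 CPM, within the normal range, while Cxcl16 stays above the normal libraries.

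In other classes Cxcl10 did not differ past the threshold. Classical monocyte-like cells, the precursors of many lung macrophages, had Cxcl10 at 40.1, 9.06 and 14.4 CPM in AML lung against 30.2, 19.4 and 38.7 CPM in normal lung (edgeR log2 change -0.60 ± 0.47 SE, adjusted p = 0.489). Neutrophil-like cells had it at 49.0, 33.3 and 15.3 CPM in AML lung against 33.6, 1.17 and 1.33 CPM in normal lung. In normal library 1 these were 102 UMIs in 5 cells. The AML libraries gave 88 UMIs in 12 cells, 84 in 19 and 101 in 47, with 49 of the 84 in 1 cell. The values of both groups thus rested on few cells, and the groups overlapped (edgeR log2 change 1.25 ± 1.0 SE, adjusted p = 0.534). Of the classical monocyte-like genes, 0 of 4 tested were called by edgeR or DESeq2, with none at an unadjusted p under 0.05, where 2.2% of 10466 genes were called.

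Cxcl9 (ENSMUSG00000029417, chromosome 5, 92321347 to 92328079, minus strand), the interferon gamma-induced CXCR3 ligand, had its highest class mean in mature dendritic cell-like cells, and classical monocyte-like cells held the most of its UMIs, 168 of 514 in AML lung and 186 of 497 in normal lung. Classical monocyte-like cells had Cxcl9 at 11.8, 12.6 and 5.6 CPM in AML lung against 0.458, 33.5 and 7.84 CPM in normal lung, and the normal libraries spanned the AML ones. Mature dendritic cell-like cells, counted where a library had at least 20, held 84.1 and 77.7 CPM in AML libraries 2 and 3 and 0 and 363 CPM in normal libraries 2 and 3. Of the 142 UMIs in normal library 3, 132 were in 1 cell. In AML library 3 the T cell-like class gave the most Cxcl9 UMIs, 103 of 277, in 10 cells, where no other library gave more than 1, and B cell-like cells gave 39, where the other libraries gave 0. Among classical monocyte-like cells with a Cxcl9 UMI, 9 of 37 in AML lung and 5 of 22 in normal lung also held Cxcl10, against 1.65% and 3.4% of the others.

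The genes on either side of these ligands were measured too. Cxcr3 averaged 33.9 CPM in both AML and normal plasmacytoid dendritic cell-like cells and 17.7 CPM in AML and 19.6 CPM in normal T cell-like cells. Ifng, the inducer of Cxcl9, was highest in NK cell-like cells at 94.5 CPM in AML and 112 CPM in normal lung. Among the interferon gamma partner genes, a list chosen with earlier results of these data known, 0 rose and 2 fell of 11 tested in nonclassical monocyte-like cells. Of all genes in that class 6.49% were called. The median log2 change of the list was -0.35, beside 0.01 over all genes. Ifngr1, a chain of the interferon gamma receptor, fell to 483, 435 and 400 CPM in AML lung, against 686, 665 and 630 CPM in normal lung (edgeR log2 change -0.55 ± 0.11 SE, adjusted p = 0.0301).

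Cxcl16 (ENSMUSG00000018920, chromosome 11, 70453983 to 70459984, minus strand) was also higher in AML than in normal nonclassical monocyte-like cells, at a low level. The class gave 249, 153 and 53 UMIs in AML lung (10.0, 5.21 and 8.35 CPM) and 9, 11 and 18 UMIs in normal lung (2.20, 2.16 and 3.90 CPM). Every AML library lay above every normal library, with a log2 change of 1.54 ± 0.36 (SE), a 2.90-fold difference (edgeR adjusted p = 0.0433). Unlike Cxcl10 these UMIs were spread over many cells, 156, 133 and 50 in the AML libraries, none with more than 9. Without cluster 31 the log2 change was 1.5 (edgeR adjusted p = 0.0502). The call was lost without AML library 1 or any 1 normal library (edgeR adjusted p between 0.0755 and 0.18) and with cells named 1 by 1 from their markers (log2 change 1.44, edgeR adjusted p = 0.0899), with the direction kept.

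Cxcl2 in the same class stood at 66.8, 22.3 and 74.5 CPM in AML lung and at 17.9, 25.9 and 31 CPM in normal lung. AML library 2 lay among the normal libraries, and the difference did not pass (edgeR log2 change 1.15 ± 0.42 SE, adjusted p = 0.138), but without AML library 2 it did (log2 change 1.54, edgeR adjusted p = 0.00421). The median log2 change of the 3 genes tested was 1.54, beside 0.01 over all genes of the class. A gene can pass the filter on low counts through the AML libraries alone, and Cxcl10 had only 1, 15 and 7 UMIs in normal lung. This median and the 2 calls therefore do not measure the 8 genes as a set. The summed immediate early and stress genes stood between 2568 and 5203 CPM in AML and between 5399 and 6319 CPM in normal nonclassical monocyte-like cells, and the 10 interstitial macrophage markers stood between 304 and 737 CPM in AML and between 1275 and 2317 CPM in normal nonclassical monocyte-like cells. Their part in the results of this class was not tested.

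Different clusters held most of the class in the 2 groups. Cluster 0 had 2159, 4395 and 281 cells from AML lung and 10, 19 and 28 from normal lung, and cluster 1 had 38, 771 and 4916 cells from AML lung and 9, 30 and 224 from normal lung. Cluster 13 had 81, 17 and 358 cells from AML lung and 353, 638 and 753 from normal lung, so it held most of the normal cells. Within cluster 13 alone, looked at after the values were seen and given without a test, Cxcl16 stood at 3.66, 0 and 5.63 CPM in AML lung and at 2.26, 2.25 and 3.35 CPM in normal lung, where the AML library at 0 had only 17 cells. A difference in state or cell makeup within the class and a difference within 1 cell type cannot be told apart.

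Genes of the lists were tested in the same class. The lists were chosen with earlier results of these data known, so their counts are not a test of a list. Of 11 NF-kB target partners tested, 4 rose and 0 fell, with a median log2 change of 0.52, beside 3.71% of all genes called higher and a median of 0.01. Outside that list, the membrane protease Mmp14, of the chemokine processing list, stood at 84.7, 70.9 and 30.3 CPM in AML lung. In normal lung Mmp14 stood at 2.20, 2.36 and 1.95 CPM (edgeR log2 change 4.88 ± 0.43 SE, adjusted p = 0.00175). Among the NF-kB target partners, the inflammatory cytokine Il1b stood at 834, 745 and 526 CPM in AML lung against 257, 239 and 323 CPM in normal lung (edgeR log2 change 1.40 ± 0.19 SE, adjusted p = 0.00646). Ccl3, a CC chemokine, and Sod2, the mitochondrial superoxide dismutase, also rose, with log2 changes of 1.96 and 1.69 (edgeR adjusted p = 0.0187 and 0.0032). Zfp36, an RNA-decay protein of the immediate early and stress list, fell by 0.74 on the log2 scale (edgeR adjusted p = 0.0294).

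The highest Cxcl16 level was in mature dendritic cell-like cells, the migratory dendritic cells marked by Ccr7. The level there was 524, 604 and 408 CPM in AML lung against 463, 676 and 573 CPM in normal lung, the first library of each group having only 14 and 18 cells. The groups overlapped, with an edgeR log2 change of -0.34 ± 0.30 (SE, adjusted p = 0.987) in the libraries with at least 20 cells. None of the 4 genes tested in this class was called by edgeR or DESeq2 and none had an unadjusted p under 0.05, where 0% of 5521 genes were called. After thinning to 800 UMIs, 21.4%, 31.6% and 24.4% of these cells had a Cxcl16 UMI in AML lung, against 22.2%, 41.4% and 44.9% in normal lung. Without thinning the shares were 85.7%, 97.4% and 43.2% in AML lung and 94.4%, 100% and 69.4% in normal lung. The thinned share in B cell-like cells was at most 0.224% in AML lung and 0.0633% in normal lung. The median UMIs of the mature dendritic cell-like cells were 18060.5, 11323.5 and 1458 in AML lung and 21494.5, 11148.5 and 1672.5 in normal lung.

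Conventional dendritic cells also held the gene. The cDC1-like cells, which cross-present antigen, had Cxcl16 at 164, 50.3 and 113 CPM in AML lung against 162, 201 and 182 CPM in normal lung. AML library 1 lay just above the lowest normal value and the other AML libraries below it (edgeR log2 change -0.74 ± 0.36 SE, adjusted p = 0.635). In cDC2-like cells it was at 61.3, 44.1 and 79.4 CPM in AML lung against 56.7, 56.3 and 121 CPM in normal lung, which overlapped. Cxcr6, the Cxcl16 receptor, averaged 50.9 CPM in AML and 54.9 CPM in normal T cell-like cells. Cxcl16 overlaps Zmynd15 on the opposite strand, with the same limit on strand as for Cxcl10.

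Pf4 (ENSMUSG00000029373, chromosome 5, 90772435 to 90773383, plus strand) had its highest level in interstitial macrophage-like cells, the C1q-expressing macrophages of the lung tissue. The class supplied 57.1% of Pf4 UMIs in AML lung against 52.2% in normal lung. Its level was 98.3, 95.4 and 209 CPM in AML lung and 392 and 359 CPM in normal libraries 2 and 3. Normal library 1 had only 10 such cells, at 594 CPM, and was left out of the fit. Cells of the class with a Pf4 UMI numbered 7, 3 and 46 in AML lung and 7 and 6 in normal libraries 2 and 3. In AML library 2, 1 cell held 64 of the 88 UMIs, and in normal library 2, 1 cell held 37 of 82. Every AML library lay below every normal one, and the log2 change of -1.51 ± 0.37 (SE, unadjusted p = 0.00261) did not pass over all genes (edgeR adjusted p = 0.133), while DESeq2 called it (adjusted p = 0.03), as did edgeR without AML library 3 (adjusted p = 0.0383).

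Cxcl2 and Cxcl16 moved with Pf4 in direction in this class, without passing. Cxcl2 stood at 146, 79.2 and 162 CPM in AML lung and at 454 and 342 CPM in normal libraries 2 and 3 (edgeR log2 change -1.65 ± 0.34 SE, adjusted p = 0.114, DESeq2 adjusted p = 0.00628). The 10 cells of normal library 1 gave 0 Cxcl2 UMIs, for which 3 counts are 19.8 CPM, so that the groups separated only among the libraries fitted. Cxcl16 stood at 92.7, 66.1 and 77.2 CPM in AML lung and at 134 and 212 CPM in normal libraries 2 and 3, with 159 CPM in the 10 cells of normal library 1 (edgeR log2 change -1.15 ± 0.31 SE, adjusted p = 0.152).

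By edgeR 0 of the 5 genes tested in interstitial macrophage-like cells were called and 4 had an unadjusted p under 0.05, where 13.3% of all genes did. Over all genes edgeR called 0.218% of 7813. DESeq2 called 2 of the chemokine genes, and the share of all genes that DESeq2 called is not given here. The median log2 change of the 5 was -1.51, beside 0.03 over all genes. Il6, an inflammatory cytokine, was the only NF-kB target partner of 12 called there, at 5.62, 16.3 and 14.2 CPM in AML lung against 134 and 88.4 CPM in normal libraries 2 and 3 (edgeR log2 change -3.19 ± 0.45 SE, adjusted p = 0.046), and DESeq2 called none of that list. The summed immediate early and stress genes were lower as well, at 3223, 3775 and 6544 CPM in AML lung against 8222 and 8138 CPM in normal lung, as were the 10 interstitial macrophage markers used to name the class, at 3740 to 5689 CPM in AML lung against 8162 to 9788 CPM in the 2 normal libraries fitted. The 8 neutrophil markers stood between 188 and 5058 CPM in AML lung and between 159 and 463 CPM in the same normal libraries. The part of these lists in the 3 chemokine values was not tested.

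**Figure D5:**
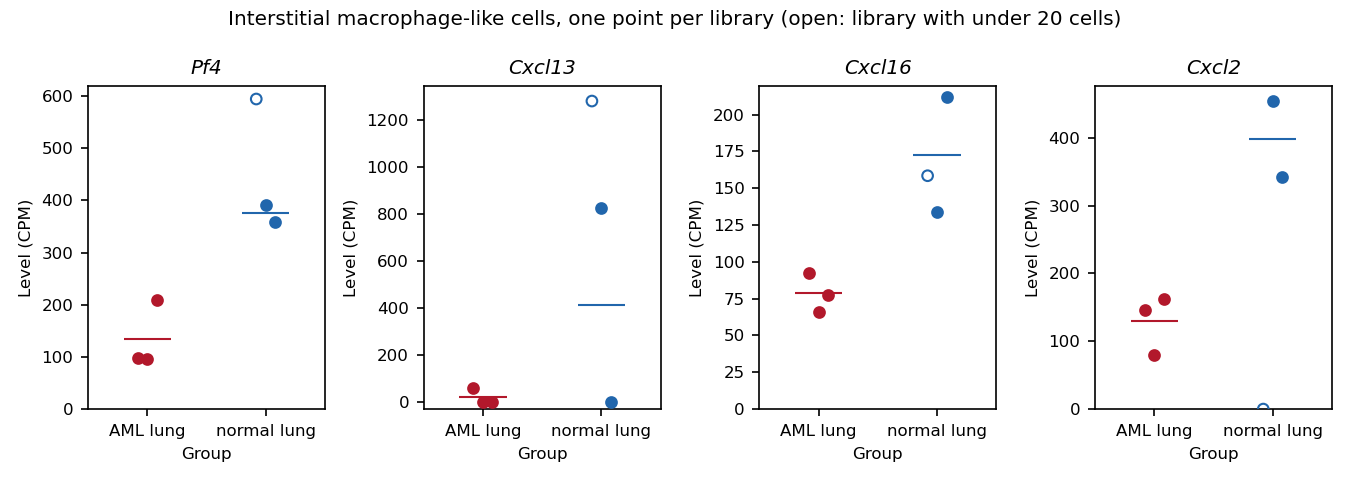
Levels (CPM) of members in interstitial macrophage-like cells, 1 point per library and AML lung left of normal lung, with an open point for normal library 1, which had 10 cells. The AML libraries hold 95.4 to 209 CPM of Pf4, and normal libraries 2 and 3 hold 392 and 359 CPM.

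Platelet RNA was looked for beside Pf4. In interstitial macrophage-like cells the 8 platelet markers summed to 7.02, 45.5 and 7.72 CPM in AML lung and 14.3 and 5.89 CPM in normal libraries 2 and 3, with 6 or 7 of the 8 genes at 0 in each library and Gp9 at 0 in all. In endothelial-like cells Pf4 stood at 0, 2.08 and 64.3 CPM in AML lung and at 0, 30.8 and 5.74 CPM in normal lung, where the platelet markers summed to 0, 12.5 and 62.8 CPM in AML lung and 11.3, 25.4 and 22.9 CPM in normal lung. Pf4 in endothelial-like cells was thus high in the AML library with the most platelet marker RNA, and in normal lung likewise. The part of platelets in it was not tested.

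Cxcl13 (ENSMUSG00000023078, chromosome 5, 95956951 to 95961068, plus strand), the ligand that guides B cells into follicles, came almost wholly from 6 cells. Whole libraries gave 44, 1 and 0 UMIs in AML lung and 198, 178 and 1 in normal lung, and for AML library 3 a count of 3 is 0.0605 CPM. Interstitial macrophage-like cells, 6 in number, carried 411 of the 422 UMIs. One cell was in AML library 1, with 44 UMIs, 2 were in normal library 1, with 190 and 4 UMIs, and 3 were in normal library 2, with 85, 69 and 19 UMIs. All 6 also held Pf4 and the complement genes C1qa and C1qb, and the AML cell had 17 Pf4 UMIs. Among the remaining interstitial macrophage-like cells, 8.51% from AML lung and 20.3% from normal lung held Pf4. With 1 such cell from AML lung and 5 from normal lung, no difference in Cxcl13 per cell can be read. Its receptor Cxcr5 was highest in B cell-like cells, averaging 217 CPM in AML and 316 CPM in normal lung.

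The genes whose class profile was most like each chemokine were found over 80 class-by-library sums and 10949 genes, as the Pearson correlation of log2(CPM + 10). The sums share libraries and depth, so the values describe these data only. Cxcl2 was most like Clec4d (r = 0.901), Osm (r = 0.884) and C5ar1 (r = 0.879), the first of which was among the neutrophil markers used for naming. Cxcl16 was most like Adam23 (r = 0.932), Arhgap22 (r = 0.899) and Tspan33 (r = 0.899), and Pf4 was most like C1qb (r = 0.903), C1qc (r = 0.903) and C1qa (r = 0.899), which were among the interstitial macrophage markers. Cxcl10 had no close match, its highest being Trafd1 (r = 0.598), Flvcr1 (r = 0.572) and Ifih1 (r = 0.57). The highest values for Cxcl3 were Ptgs2os2 (r = 0.737), Mirt2 (r = 0.716) and Sycp2 (r = 0.714), and for Cxcl9 Dkk2 (r = 0.808), Procr (r = 0.726) and Atf7ip2 (r = 0.7). Cxcl1 and Cxcl13 rest on so few cells that their closest genes, Frzb (r = 0.964), Sphk1 (r = 0.891) and Insm1 (r = 0.826) for Cxcl1 and Chp2 (r = 0.834), C4b (r = 0.827) and Alox15 (r = 0.815) for Cxcl13, describe single libraries.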

How the data were processed

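Whole-number UMI counts per gene and cell barcode were deposited by the authors for 6 libraries, made with Cell Ranger 7.0.0 on mm10 per the submitters' processing notes, with no further normalization. From these counts, cells with at least 200 genes, 500 UMIs and at most 10% mitochondrial UMIs were kept (71634 of 73095 barcodes), and 1342 predicted doublets were left out with Scrublet. Its own threshold marked 0% in 3 libraries, where the median threshold of the others was used. Cells were clustered with scanpy 1.11.5 and leidenalg 0.10.2 without the 8 chemokine genes. The clustering settings and the naming of clusters from fixed markers were adjusted after seeing clusters, and the members and gene lists were chosen with earlier results of these data known. Gene positions are from GENCODE on GRCm38.

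UMIs were summed per library and class. Libraries with at least 20 cells entered edgeR 4.0.16 (R 4.3.3, TMM, filterByExpr, quasi-likelihood test, Benjamini-Hochberg over all genes tested), which was tested on simulated data. DESeq2 1.42.0, other scaling and filters, other cell names, the replicate number as a block and each library left out were alternatives, as were 2 added after seeing the data. Shares of cells came from cells thinned to 800 UMIs, which left out 11533 AML and 1665 normal cells. Limits of 3 counts cover counting error only. Genes named are the 8 chemokines, up to 6 genes a class from the lists that passed, by p, and the 3 most alike genes per chemokine. Replicate libraries differed by far more than sampling noise (chi-square per degree of freedom 42.4 to 163).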

Additional observations from a re-analysis of the deposited data

How the results depend on the processing

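Of 202 alternative values of the counts of called genes and of the main levels, 172 stayed within 1.5 times the main count or within 1 SD of the level. In whole libraries 0 genes were called, and 1 by DESeq2. In interstitial macrophage-like cells 0 were called, against 3 without a filter on low counts, 2 by DESeq2, 1 with the replicate block and 0 to 1 on leaving out a library. In nonclassical monocyte-like cells 2 were called, against 0 when each cell was named by its own markers, 0 without the Cxcl10-led cluster, 1 without the cell with the most Cxcl10 UMIs (the last 2 chosen after seeing the data) and 0 to 2 on leaving out a library, with 0 without AML library 1 or any 1 normal library. Without a filter on low counts 1 gene was called in each of neutrophil-like, cDC2-like, mature dendritic cell-like, plasmacytoid dendritic cell-like and endothelial-like cells, where the main count was 0. With the replicate block 1 was called in each of B cell-like, NK cell-like, plasmacytoid dendritic cell-like and endothelial-like cells. Leaving out a library gave 0 to 1 in NK cell-like and mature dendritic cell-like cells. The shares of all genes called under these alternatives are not given here. The counts therefore cannot be read as more or fewer than among all genes. Whether the replicate numbers pair the libraries is not known. Deviations of same-numbered libraries correlated at 0.226, -0.14 and -0.155, and only AML library 1 correlated best with its own number. Deviations from the mean of so few libraries are not independent, so these values cannot decide it. The median UMIs per barcode fell with the number in both groups. Among the whole-library log2 changes near 0, on leaving out a library Cxcl9 ranged from -0.69 to 0.31, Cxcl16 from -0.028 to 0.32 and Pf4 from -0.97 to 0.52, Pf4 being at -0.19 with the block. Cxcl10 in classical monocyte-like cells reversed to 0.16 when each cell was named by its own markers. Levels that moved were Pf4 in normal interstitial macrophage-like cells (417 CPM by the cells' own markers, 352 CPM with doublets kept) and Cxcl10 in AML nonclassical monocyte-like cells (3.05 CPM by the cells' own markers). Shares that moved without thinning were those with Cxcl16 in mature dendritic cell-like cells (70.3% in AML and 84.7% in normal lung) and with Cxcl2 in normal neutrophil-like cells (68.7%). The causes were not tested. Of 307 alternative values of single genes, 10 reversed, 13 lost and 15 gained a call.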

Other observations

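Genes of the chemokine pathways outside the 8 members also differed in whole libraries, where cell makeup and level per cell cannot be told apart. Of 12 NF-kB target partners, 6 rose and 1 fell, with a median log2 change of 0.71, where 1042 of all 16856 genes rose and 627 fell. That list was chosen with earlier results of these data known. Il1b stood at 1000, 876 and 1130 CPM in AML lung against 546, 442 and 496 CPM in normal lung (edgeR log2 change 1.15 ± 0.15 SE, adjusted p = 0.0111). Ccl4, a CC chemokine, stood at 278, 207 and 247 CPM in AML lung against 63.7, 101 and 105 CPM in normal lung (edgeR log2 change 1.57 ± 0.20 SE, adjusted p = 0.0111). The adhesion molecule Icam1 and Sod2 rose with log2 changes of 0.74 and 1.39 (edgeR adjusted p = 0.0125 and 0.0121). The protease Mmp14, of the chemokine processing list, rose with a log2 change of 3.24 (edgeR adjusted p = 0.0161). Cxcl12, the stromal ligand of Cxcr4, fell to 1.04, 1.14 and 2.48 CPM in AML lung, against 7.45, 17.8 and 10.1 CPM in normal lung (edgeR log2 change -2.79 ± 0.45 SE, adjusted p = 0.02). Its highest class was endothelial-like cells, where it stood between 54.5 and 196 CPM in AML lung and between 270.5 and 308 CPM in normal lung. These cells made up 0.471% to 3.15% of cells in AML lung against 2.84% to 6.67% in normal lung.

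In classical monocyte-like cells, where 2.2% of all genes were called, the proliferation genes Ube2c and Mki67 rose with log2 changes of 3.44 and 1.64 (edgeR adjusted p = 0.0377 and 0.0473). Mki67 stood at 17.8, 18.4 and 8.0 CPM in AML lung against 4.35, 3.74 and 5.88 CPM in normal lung. The immediate early gene Ier3 and Sod2 also rose there, with log2 changes of 1.77 and 0.90 (edgeR adjusted p = 0.0307 and 0.0483).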
